A study of Mus musculus with 12 samples.

Results

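The miR-183, miR-96 and miR-182 cluster comprises 3 microRNAs (miRNAs) that are cut from neighbouring hairpins on mouse chromosome 6. The rows named mmu-miR-183-5p, mmu-miR-96-5p and mmu-miR-182-5p were taken by name from the deposited miRNA abundance table, which gave 3 members among 1915 miRNA names. All 3 were found and all 3 were detected. The tissue was testis from 4-month-old male C57BL/6 mice, and its small RNAs of 17 to 40 nt were sequenced with spike-in RNA added in proportion to the total RNA used. The libraries were made after oxidation with sodium periodate (NaIO4) or before it, each from 10, 50 and 100 ng of total RNA with 2 technical replicates per group, in 6 groups and 12 libraries. All groups share this strain, age and tissue. Because replicates were technical, every p-value refers to variation among libraries, and none to variation among animals.

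The 3 miRNAs are generally transcribed together as one primary transcript, whose hairpins are processed by Drosha and Dicer. The cluster is best known from sensory organs such as the retina and the inner ear, and its members also occur in other epithelia and in tumours. Each mature miRNA guides an Argonaute protein to messenger RNAs through its seed, the bases 2 to 8 from its 5′ end. Animal miRNAs usually end in free 2′ and 3′ hydroxyls, which periodate oxidizes so that the 3′ adapter can no longer be ligated. The last base of germ-cell PIWI-interacting RNAs (piRNAs) is 2′-O-methylated, and these RNAs are left intact.

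The mature sequences are shown because the members' seeds and their oxidizable 3′ ends are what relate them to each other and to the assay. They are RefSeq sequences on build GRCm38.p6, written 5′ to 3′ with the seed in capitals.
miR-183-5p: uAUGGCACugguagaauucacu
miR-96-5p: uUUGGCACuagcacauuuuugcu
miR-182-5p: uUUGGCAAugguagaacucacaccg

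The mature miR-183-5p lies at chr6:30169711-30169732, is 22 nt long and ends in U. miR-96-5p lies at chr6:30169506-30169528, is 23 nt long and ends in U. miR-182-5p lies at chr6:30165962-30165986, is 25 nt long and ends in G. All 3 are on the minus strand. The seeds are alike but not the same. With positions counted from 1 at the 5′ end, the seed of miR-183-5p differed from that of miR-96-5p by A2U and from that of miR-182-5p by A2U and C8A. The seed of miR-182-5p differed from that of miR-96-5p by A8C. Aligned from the 5′ end without gaps, miR-183-5p and miR-182-5p were identical at 18 of 22 positions. miR-183-5p and miR-96-5p were identical at 13 of 22 positions, and miR-182-5p and miR-96-5p at 12 of 23. Among the 1623 miRNA names of the table with a RefSeq sequence, no other had any of these 3 seeds.

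The hairpins lie in transcription order Mir183, Mir96, Mir182 within 3820 nt, at chr6:30169668-30169737, chr6:30169446-30169551 and chr6:30165918-30165992. The Mir96 hairpin starts 186 nt and the Mir182 hairpin 3745 nt downstream of the start of the Mir183 hairpin, so miR-183 and miR-96 are close neighbours and miR-182 is far from both. In the GENCODE M21 annotation no other gene overlapped a hairpin. The nearest annotated genes were the protein-coding Nrf1 and the long non-coding Rncr4, both on the plus strand. No sequence of the deposited piRNA table lay within a hairpin on either strand.

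**Figure D1:**
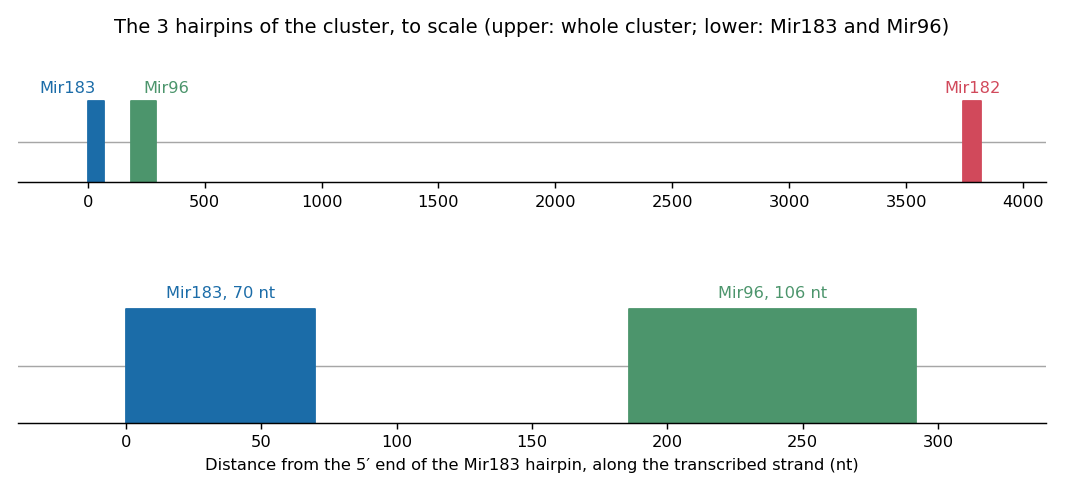
Position of the 3 hairpins as distance in nt from the 5′ end of the Mir183 hairpin, along the transcribed strand and to scale, with the whole cluster above and the first 2 hairpins enlarged below. Mir183 and Mir96 lie next to each other and Mir182 starts 3745 nt downstream.

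Values were in RPM, the reads of a miRNA scaled to a read total of its library. What that total counts is not stated, and the number of reads behind the values was recovered from the size of 1 read in each library. Libraries after oxidation held 625 to 937 miRNA reads, against 326701 to 454158 miRNA reads before oxidation. The recovered totals were 1924201 to 3347735 reads per library. Unmethylated spike-in reads numbered 7 to 25 after oxidation, against 4123 to 15750 before it. The testis label was checked against 9 germ-cell miRNAs led by miR-741-3p, whose sum before oxidation was 41145 to 49825 RPM. Tests were made with limma on log2(RPM + 1) for the 141 miRNAs with a mean of at least 5 RPM, and a call is a Benjamini-Hochberg adjusted p below 0.05 over these 141. miR-183-5p and miR-182-5p passed this filter and miR-96-5p did not.

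All 3 members were lost from the libraries after oxidation. Together they had 2 reads in the 6 libraries after oxidation, against 3804 reads in the 6 libraries before it. miR-183-5p, the most abundant member, was at 0 RPM in 5 libraries after oxidation and at 0.698 RPM, 2 reads, in the first 50 ng library. Before oxidation the 10 ng libraries had 101 and 89.7 RPM, the 50 ng libraries 103 and 102 RPM, and the 100 ng libraries 177 and 221 RPM. Every library after oxidation was below every library before it, as for 95% of all tested miRNAs (134 of 141). Over the pooled libraries the level was 1058-fold lower after oxidation (95% interval 293 to 8744, which covers counting error only). The mean was 0.116 ± 0.285 RPM after oxidation and 132 ± 53.7 RPM before it (SD, n = 6 each).

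miR-182-5p was at 0 RPM in all 6 libraries after oxidation. Before oxidation it was at 76.4 and 86.0 RPM at 10 ng, 74.8 and 78.6 RPM at 50 ng, and 58.0 and 71.0 RPM at 100 ng. The groups were far apart and the 6 values before oxidation were close to one another, with a mean of 74.2 ± 9.35 RPM (SD, n = 6). The recovered totals of the libraries after oxidation came to 15712407 reads. With 0 reads among them, a level of up to 0.191 RPM was allowed, taking 3 reads over the 6 libraries as the limit. The level was thus at least 388-fold lower than before oxidation.

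miR-96-5p, the rarest member, was likewise at 0 RPM in all 6 libraries after oxidation. Before oxidation it was at 3.57 and 5.08 RPM at 10 ng, 6.59 and 6.57 RPM at 50 ng, and 7.08 and 6.10 RPM at 100 ng, from 10 to 22 reads per library. Its mean before oxidation was 5.83 ± 1.30 RPM (SD, n = 6), and the same limit of 3 reads made its level at least 30.5-fold lower after oxidation. The bound is small because the starting level was low.

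The fitted difference of miR-183-5p, after minus before oxidation over the 3 inputs, was -6.85 ± 0.14 on the log2(RPM + 1) scale (SE, limma adjusted p = 2.14e-11). That of miR-182-5p was -6.22 ± 0.07 (SE, limma adjusted p = 2.54e-12). Both tested members thus passed the test as lower, beside 97.2% of all tested miRNAs (137 of 141), and the median difference of all 141 was -6.02. All miRNAs together summed to 218 to 441 RPM per library after oxidation. The filter was therefore passed mostly through the libraries before oxidation, and a fall was largely built into the tested set. With no filter, 296 of 496 detected miRNAs were called lower and 2 higher. Among the 141 tested miRNAs of the filtered fit both members lay in the middle, miR-183-5p at place 56 and miR-182-5p at place 70 from the lowest. With values after oxidation at or near 0, these places mostly follow the level before oxidation and do not compare the strength of the fall. For miR-96-5p the exact 2-sided permutation test of the oxidation labels within inputs gave p = 0.00926, the smallest that its 216 arrangements can give, for a difference of -2.75. A share of 95% of the tested miRNAs had no overlap between the groups and were lower after oxidation, as the 3 members were. Fitted differences of miRNAs at 0 depend on the added 1 RPM and are no bounds.

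Both tested members were also called lower at each input. At 10 ng miR-183-5p was at 0 in both libraries after oxidation, against a mean of 95.2 RPM before it, at least 130-fold lower by the limit of 3 reads over a group. At 50 ng its 2 reads after oxidation gave a ratio of 263-fold lower (95% interval 72.4 to 2174). At 100 ng it was at 0 after oxidation, against 199 RPM before it, at least 432-fold lower. The bounds of miR-182-5p were 111-fold, 131-fold and 140-fold at 10, 50 and 100 ng, and those of miR-96-5p were 5.89-fold, 11.2-fold and 14.3-fold. The fitted differences of miR-183-5p were -6.59, -6.32 and -7.64 (SE 0.23 each), and those of miR-182-5p were -6.36, -6.28 and -6.03 (SE 0.13 each). Each of the 6 passed the test, beside 96.5% (10 ng), 95.7% (50 ng) and 95% (100 ng) of the tested miRNAs called lower, and 1.42%, 0.709% and 0% called higher. The direction held under RPM and under spike-in scalings, and flipped for miR-183-5p at 50 ng under quantile normalization, edgeR with TMM and DESeq2, and for miR-182-5p at 50 ng under DESeq2 and at 100 ng under median centring. Over the inputs, edgeR with TMM kept large differences that did not pass, -6.65 for miR-183-5p and -9.79 for miR-182-5p. With DESeq2 both calls were lost at -0.20 and -0.25, that of miR-183-5p also with quantile normalization and that of miR-182-5p also with median centring. Those scalings set miRNAs against one another, and under them the median of all tested miRNAs after minus before oxidation was 0.19 (median centring), -0.16 (quantile normalization), -4.16 (edgeR with TMM) and 0.73 (DESeq2).

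**Figure D2:**
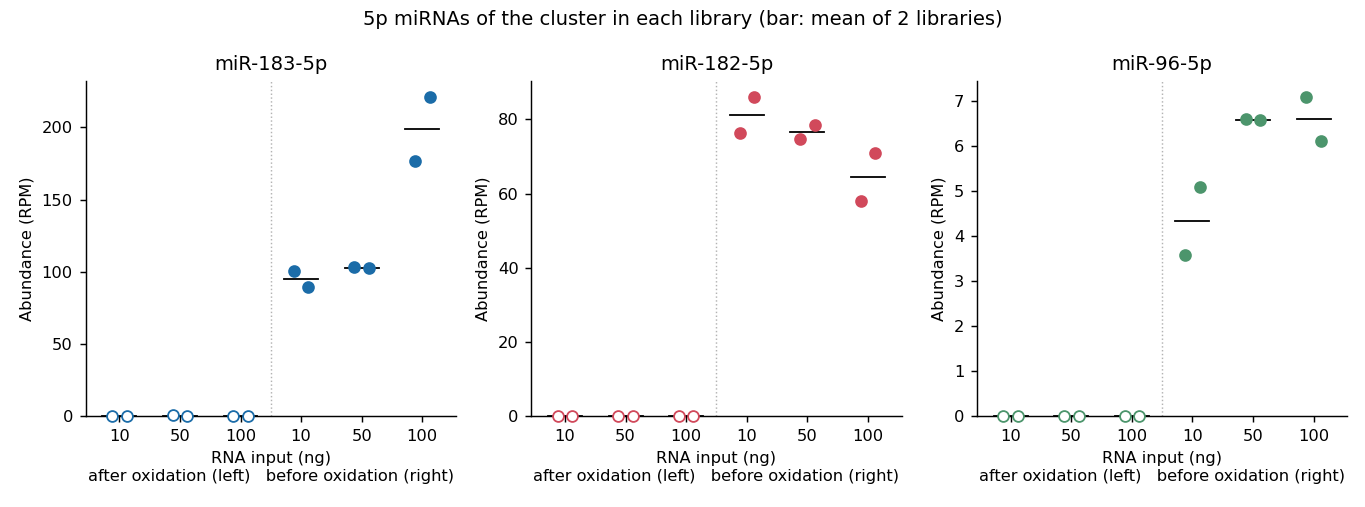
Abundance in RPM of each member in all 12 libraries, after oxidation on the left (open points) and before oxidation on the right (filled points), by RNA input in ng, with bars at the mean of 2 libraries. All points after oxidation lie at 0 except 0.698 RPM for miR-183-5p at 50 ng, and before oxidation miR-183-5p is highest at 100 ng in RPM while miR-182-5p is not.

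The loss was set beside that of miRNAs as a whole. The summed miRNA level was 438-fold lower after oxidation. Had the members followed that ratio, miR-183-5p would have had 4.83 reads over the 6 libraries after oxidation, against 2 observed (exact Poisson 95% interval 0.242 to 7.22). miR-182-5p would have had 2.65 reads and miR-96-5p 0.210, against 0 observed for both (upper limit 3.69 reads). The reads expected at the summed ratio lay within each of these intervals. For miR-182-5p and miR-96-5p a stronger fall than that of the sum was not detectable at this depth. For miR-183-5p, 0 reads would have put the expected 4.83 above the upper limit of 3.69, but 2 reads were observed.

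Before oxidation, miR-183-5p ranked 41st to 67th by level among the 291 to 361 miRNAs detected per library, miR-182-5p ranked 64th to 84th, and miR-96-5p 152nd to 176th. The 3 members together made up 0.141% to 0.215% of the miRNA reads. Nearly all reads of the locus came from the 5p arms. The 5p arm held 2388 of 2388 reads of miR-183, 1312 of 1314 of miR-182 and 104 of 105 of miR-96. The 3p rows of miR-182 and miR-96 held 2 and 1 reads before oxidation, the miR-183-3p row held 0, and all 3 were at 0 after oxidation.

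By RNA input, the levels of the 3 members before oxidation stood in different orders. miR-183-5p averaged 95.2 ± 7.82 RPM at 10 ng, 103 ± 0.485 RPM at 50 ng and 199 ± 31.1 RPM at 100 ng (SD, n = 2 each), so its 10 and 50 ng means differed by less than the SD at 10 ng and its 100 ng mean stood above both. miR-182-5p averaged 81.2 ± 6.79 RPM at 10 ng, 76.7 ± 2.63 RPM at 50 ng and 64.5 ± 9.22 RPM at 100 ng, with overlapping values at 10 and 50 ng and lower ones at 100 ng. miR-96-5p averaged 4.33 ± 1.07 RPM at 10 ng, 6.58 ± 0.0144 RPM at 50 ng and 6.59 ± 0.696 RPM at 100 ng, with the 50 ng values inside the range at 100 ng and the 10 ng values below it.

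At 10 ng against 100 ng, miR-183-5p was lower by the test. Its difference was -1.05 ± 0.23 on the log2(RPM + 1) scale (SE, limma adjusted p = 0.00655), a ratio of 0.478 in mean RPM, but the direction turned to 0.60, still called, when the libraries before oxidation were scaled to their unmethylated spike-in reads. That scaling moved the median of all tested miRNAs to 1.14, against -0.49 in RPM, and miR-183-5p lay below the median in either scaling. The call was lost with a pseudocount of 0.1 RPM (adjusted p = 0.412), median centring (adjusted p = 0.0512) and quantile normalization (adjusted p = 0.652), at -1.06, -0.67 and -0.56. miR-182-5p was 1.26 times as high at 10 ng, a difference of 0.33 ± 0.13 that did not pass (SE, limma adjusted p = 0.0548). It passed, with the same sign, under 8 of 15 other settings. The SEs of both members draw on all 6 groups, those after oxidation at or near 0 included, and not only on the libraries compared. With the libraries before oxidation only, they were 0.13 for miR-183-5p and 0.17 for miR-182-5p. One of the 2 tested members was thus called lower, beside 34.8% of all tested miRNAs called lower and 19.1% called higher. In both members the 10 and 100 ng values did not overlap, as for 59.6% of tested miRNAs on the lower side and 29.1% on the higher side. For miR-96-5p the difference was -0.52 with a pooled SD of 0.23 on the log2 scale, and the 10 ng values rested on 24 reads.

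At 50 ng against 100 ng, limma called none of the 141 miRNAs (0% in either direction), while 24 had an unadjusted p under 0.05. Of the same 141, edgeR with TMM called 11, edgeR without TMM 16 and DESeq2 35, and limma called 41 with the libraries before oxidation only, 42 with the 4 libraries compared, 23 with scaling to all spike-ins and 40 with a pseudocount of 10 RPM. The difference of miR-183-5p was -0.94 ± 0.23, the third lowest of the 141 (SE, limma adjusted p = 0.0804), with a ratio of 0.516 in mean RPM. It passed in 11 of 16 other settings, all 16 of the same sign, among them edgeR with TMM (adjusted p = 0.00760), edgeR without TMM (adjusted p = 0.00375) and DESeq2 (adjusted p = 7.53e-11). The SE of 0.23 again draws on all 6 groups. With the libraries before oxidation only, it was 0.13 (limma adjusted p = 1.51e-07). miR-182-5p differed by 0.25 ± 0.13 (SE, limma adjusted p = 0.368), and miR-96-5p by 0.00 with a pooled SD of 0.09. The 50 and 100 ng values did not overlap for miR-183-5p, which 32.6% of tested miRNAs shared on the lower side, nor for miR-182-5p, which 33.3% shared on the higher side.

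**Figure D3:**
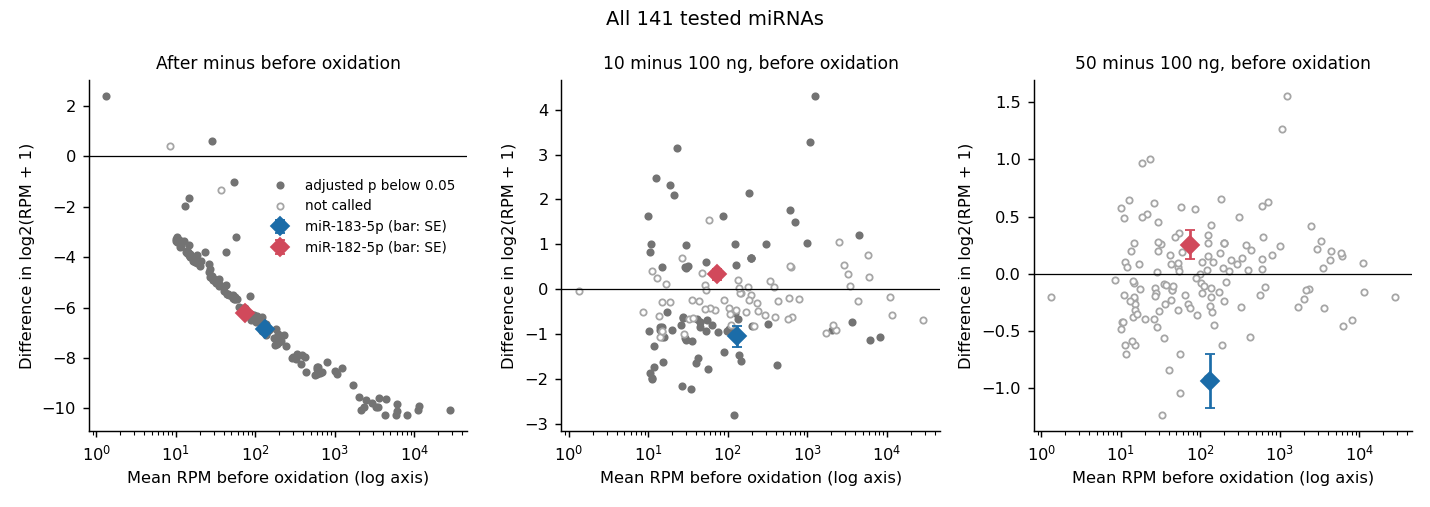
Difference in log2(RPM + 1) of each of the 141 tested miRNAs against its mean RPM before oxidation (log axis), for after minus before oxidation, 10 minus 100 ng and 50 minus 100 ng before oxidation, with filled points for called miRNAs and diamonds with SE for 2 cluster members. Both members lie inside the band of miRNAs of their level in the first panel, and in RPM miR-183-5p lies below 0 in the second, where unmethylated spike-in scaling turns it to 0.60, and is the third lowest in the last.

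The make-up of the cluster's reads is a measure that no scaling of a whole library can change, and it was set out by input. miR-183-5p held 55.7% and 49.6% of the members' reads in the 10 ng libraries, 55.9% and 54.6% in the 50 ng libraries, and 73.1% and 74.1% in the 100 ng libraries. miR-182-5p held 42.3% and 47.6% in the 10 ng libraries, 40.5% and 41.9% in the 50 ng libraries, and 24.0% and 23.8% in the 100 ng libraries. The exact binomial 95% intervals at 100 ng, from 69.7% to 76.9% for miR-183-5p, did not reach those at 10 and 50 ng, which ended at 60.4%. The ratio of miR-183-5p to miR-182-5p reads was 1.32 and 1.04 in the 10 ng libraries, 1.38 and 1.30 in the 50 ng libraries, and 3.05 and 3.11 in the 100 ng libraries. miR-96-5p held 1.98% to 3.57% in every library, with overlapping intervals. The intervals cover counting error only, and with 2 libraries per input no test of the shares was made. After oxidation the 2 reads that remained give no make-up.

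**Figure D4:**
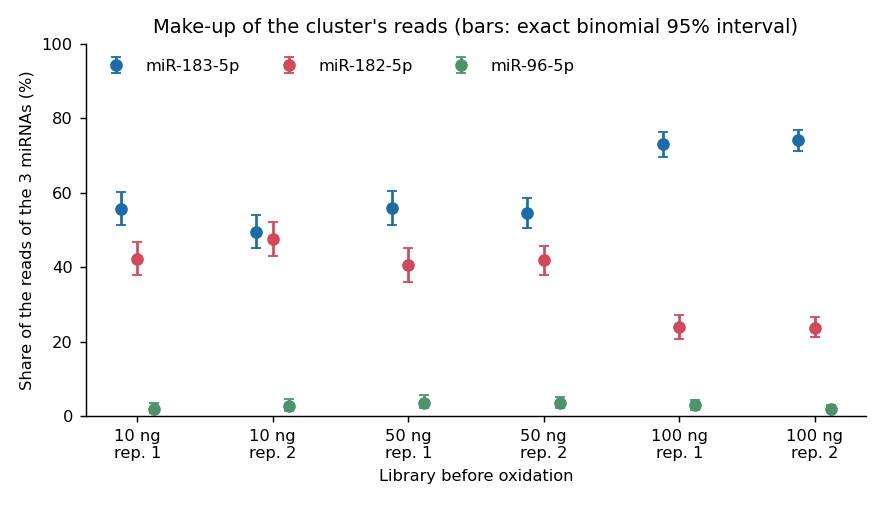
Share in % of the reads of the 3 members held by each of them in the 6 libraries before oxidation, with exact binomial 95% intervals. miR-183-5p holds 49.6% to 55.9% at 10 and 50 ng and 73.1% to 74.1% at 100 ng. The shares add up to the whole and that of miR-96-5p is small, so the share of miR-182-5p has to move the other way.

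Summed levels of marker miRNAs of testis cell types before oxidation were set out by input in the same way. In RPM the sums of the germ-cell, Sertoli-cell and smooth-muscle lists were highest at 100 ng, though single germ-cell and Sertoli-cell markers were called in both directions. The sums were not scaled to spike-in reads. Scaling to unmethylated ones moved the median of all tested miRNAs at 10 against 100 ng from -0.49 to 1.14. The summed level of 9 germ-cell miRNAs was 41145 and 42303 RPM at 10 ng, 46212 and 46317 RPM at 50 ng, and 49656 and 49825 RPM at 100 ng. Most of that sum was miR-741-3p (mean 28164 RPM before oxidation). At 10 against 100 ng, 34.8% of all tested miRNAs were called lower and 19.1% higher. Of the 9, 1 was called lower (miR-881-3p, -1.68) and 2 higher (miR-871-3p, 1.21, and miR-465a-3p, 0.71). That of 2 Sertoli-cell miRNAs was 105 and 110 RPM at 10 ng, 171 and 175 RPM at 50 ng, and 187 to 200.0 RPM at 100 ng. Of these, miR-202-5p was called lower at 10 than at 100 ng and miR-202-3p higher, at -1.47 and 2.09, beside those shares of all tested miRNAs. That of 2 smooth-muscle miRNAs was 8940 and 9180 RPM at 10 ng, 12045 to 12101 RPM at 50 ng, and 13430 and 13625 RPM at 100 ng. Nearly all of it was miR-143-3p (mean 11546 RPM before oxidation, against 7.99 RPM for miR-145a-5p). At 10 against 100 ng miR-143-3p was not called (-0.58), and miR-145a-5p was not tested. That of 7 epithelial miRNAs was 274 and 300 RPM at 10 ng, 268 to 287 RPM at 50 ng, and 247 to 276 RPM at 100 ng. Of 6 blood-cell miRNAs, 2 were at 0 in all libraries before oxidation and the sum was 0.179 to 6.07 RPM, while no marker of the other lists was at 0 throughout. All inputs come under one testis RNA label. The unmethylated spike-in reads also differed, with 4123 and 4409 in the 10 ng libraries, 9973 and 11641 in the 50 ng libraries, and 14517 and 15750 in the 100 ng libraries. The part of these values in the members' differences between inputs was not tested. The inputs were amounts of total RNA and not of cells, and no difference in cell make-up between them was tested. In bulk RNA, such sums do not tell fewer cells of a type from less RNA per cell.

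Between inputs after oxidation there was nothing to compare for miR-182-5p and miR-96-5p, which were at 0 in every library. For miR-183-5p the 2 reads at 50 ng against 0 at 100 ng gave a difference of 0.38 ± 0.23 on the log2(RPM + 1) scale (SE, limma adjusted p = 0.503), beside 1.42% of tested miRNAs called lower and 2.84% called higher. The interaction of oxidation with input asked whether the fall differed between inputs. For miR-183-5p the F test gave an adjusted p of 0.0309 (limma, F = 8.88), beside 33.3% of tested miRNAs called. Its 10 against 100 ng term was 1.05 ± 0.33 (SE, limma adjusted p = 0.0374). The call of the F test was lost in 7 of 12 other settings and on leaving out any of 7 single libraries. For miR-182-5p the F test did not pass (limma adjusted p = 0.287). With values after oxidation at or near 0, the interaction mostly repeats the difference between inputs before oxidation with the sign turned, and is no separate measurement. For miR-183-5p its 50 against 100 ng term also takes in the 0.38 from the 2 reads after oxidation.

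The tested miRNAs whose levels ran most like each member over the 6 libraries before oxidation were taken by the smallest root-mean-square difference in log2(RPM + 1), each miRNA centred on its own mean. For miR-183-5p these were miR-409-5p (0.161), miR-204-5p (0.251) and miR-101a-3p (0.260), against a median of 0.475 over all tested miRNAs. miR-182-5p, its neighbour in the cluster, was 95th at 0.620. For miR-182-5p the closest were miR-191-5p (0.0886), miR-26a-5p (0.0925) and miR-151-5p (0.110), against a median of 0.459, and miR-183-5p was 109th. These likenesses describe 6 libraries of one tissue that share their inputs and depths.

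**Figure D5:**
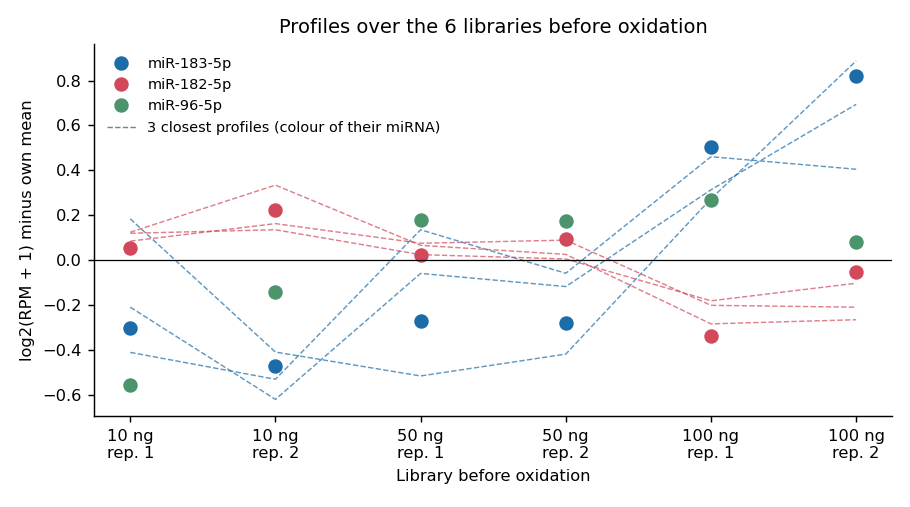
Level of each member as log2(RPM + 1) minus its own mean over the 6 libraries before oxidation (points), with the 3 closest profiles of miR-183-5p and of miR-182-5p as dashed lines in their colour. In RPM miR-183-5p is highest in the 100 ng libraries, where miR-182-5p is below its mean.

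For comparison, the miR-34 and miR-449 family, made from several loci, and the miR-106b-25 cluster were described in the same way. Of 8 miR-34 and miR-449 rows, 4 were tested and all 4 fell after oxidation in RPM, with a median of -5.63 beside -6.02 over all tested miRNAs, of which 97.2% were called lower. Their most abundant row, miR-34c-5p, known from meiotic and later male germ cells, was at 2.31 ± 1.34 RPM after oxidation and 1710 ± 490 RPM before it (SD, n = 6 each). Of 6 miR-106b-25 rows, 3 were tested and all 3 fell in RPM beside that same 97.2%, with a median of -4.88, and their most abundant row, miR-25-3p, was at 0.376 ± 0.718 RPM after oxidation and 211 ± 54.6 RPM before it (SD, n = 6 each). At 10 against 100 ng before oxidation, 1 of the 4 miR-34 and miR-449 rows was called lower, miR-449a-5p at -2.15 (limma adjusted p = 9.48e-05), and 1 higher, miR-34b-3p at 0.55 (limma adjusted p = 0.00761). In the miR-106b-25 list, 2 of 3 were called lower and none higher, and over all tested miRNAs 34.8% were called lower and 19.1% higher. These 2 lists were chosen with earlier results known, and no list was tested against another.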

How the data were processed

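The authors deposited miRNA and piRNA tables as RPM (reads scaled to a read total of the library) and a spike-in table of raw read counts. Per the submitters' processing notes, Bowtie was used with the builds mm10 and hg38, with no version given, and the sources used here do not say what the RPM values were divided by. The value of 1 read was recovered from the steps of the piRNA values (100% whole reads within 0.01 of a read). This put the divisor at 1924201 to 3347735 reads per library. Between 93.2% and 100% of the miRNA values were whole on that scale, and all values of the 3 members were. One read was worth 0.299 to 0.520 RPM. Intervals and the limit of 3 reads cover counting error only, since no molecular identifiers are stated. No column was left unused.

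For the 141 miRNAs averaging 5 RPM or more, log2(RPM + 1) was modelled by limma-trend (R 4.3.3, limma 3.58.1) as 6 group means with a shared spread, and p-values were adjusted by Benjamini-Hochberg over all 141. miR-96-5p, below the filter, was tested by exact permutation. Alternatives were other pseudocounts, filters and scalings, edgeR (4.0.16) and DESeq2 (1.42.0) on recovered reads rounded to whole numbers, a replicate block, fewer libraries, and each library left out. Fits on the libraries before oxidation only, with and without scaling to unmethylated spike-in or summed miRNA reads, were added after seeing the data. The members and lists were chosen with earlier results of these data known. Named miRNAs were the members, their 3p arms and seed relatives, the 3 closest profiles of each tested member and the most abundant row of each list. miR-449a-5p, miR-34b-3p and the single marker miRNAs were named after their values were seen.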

Additional observations from a re-analysis of the deposited data

Results flagged for a closer look

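One result was taken out for a closer look because an interaction test passed its threshold. The interaction F test of oxidation with input called miR-183-5p (limma adjusted p = 0.0309), as it did 33.3% of all tested miRNAs. With values after oxidation at or near 0, the test mostly repeats the difference between inputs before oxidation and is no separate measurement of the fall. Its 50 against 100 ng term also takes in the 2 reads at 50 ng after oxidation, a difference of 0.38. The fitted falls were -6.59, -6.32 and -7.64 at 10, 50 and 100 ng. All 6 libraries after oxidation lay below all 6 before it, as for 95% of all tested miRNAs (134 of 141). The values after oxidation were 0 RPM in 5 libraries and 0.698 RPM in the remaining one. The call was lost in 7 of 12 other settings, and was lost when any of 7 libraries was left out in turn, with an adjusted p of up to 0.114 without the second 100 ng library before oxidation. Groups of 2 libraries are too small to test for a single library that stands apart.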

How the results depend on the processing

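Other processing bore most on the comparison with oxidation where a method set miRNAs against one another. Over the inputs, miR-183-5p was at -0.77 with quantile normalization, -6.65 with edgeR with TMM and -0.20 with DESeq2, and miR-182-5p at -0.014 with median centring, -9.79 with edgeR with TMM and -0.25 with DESeq2, none past the threshold. At 10 ng the values below the threshold were -0.99 (quantile), -10.36 (TMM) and -0.72 (DESeq2) for miR-183-5p, and -10.13 (TMM) and -0.49 (DESeq2) for miR-182-5p. At 50 ng miR-183-5p was at -0.063 (median centring), and turned to 0.28 (quantile), 1.49 (TMM) and 2.30 (DESeq2), while miR-182-5p was at -0.026 (median centring) and -9.78 (TMM) and turned to 0.30 (DESeq2). At 100 ng miR-183-5p was at -11.08 (TMM) and -2.19 (DESeq2), and miR-182-5p at -9.46 (TMM) and -0.56 (DESeq2), and turned to 0.35 with median centring (adjusted p = 0.0390). The cause of each lost call was not tested, but the median of all tested miRNAs moved with these settings, and with scaling to all spike-in reads it was -7.43 and to methylated ones -7.61. The falls of both members held in every fit that left out 1 library, with -6.97 to -6.72 for miR-183-5p and -6.27 to -6.17 for miR-182-5p over the inputs. For miR-96-5p, at 0 in all libraries after oxidation, every permutation gave the smallest p it can give, 0.00926, so these alternatives say nothing about stability, and limma with no filter gave -2.75 (adjusted p = 1.44e-08). A filter of 50 RPM left out miR-182-5p and miR-96-5p.

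At 10 against 100 ng before oxidation, miR-183-5p lost its call at -1.06 (pseudocount 0.1), -0.67 (median centring) and -0.56 (quantile), turned to 0.60 with unmethylated spike-in scaling, and lay at -1.21 to -0.89 without 1 library. miR-182-5p passed at 0.30 (pseudocount 10), 0.71 (median centring), 0.45 (quantile), 0.91 (all spike-ins), 0.65 (methylated spike-ins), 0.67 (TMM), 1.97 (unmethylated spike-ins) and 0.43 (share of miRNA reads). Without 1 library it lay at 0.19 to 0.48 and passed without the first 10 ng library (adjusted p = 0.0387) or the second 100 ng library before oxidation (adjusted p = 0.0204). miR-96-5p was at -0.21 with a pseudocount of 10 RPM. At 50 against 100 ng before oxidation, miR-183-5p passed at -0.88 (pseudocount 10), -0.94 (filter of 50 RPM), -0.82 (all spike-ins), -0.91 (methylated spike-ins), -0.89 (TMM), -0.95 (edgeR without TMM), -0.98 (DESeq2), -0.94 (4 libraries only, or libraries before oxidation only), -0.54 (unmethylated spike-ins) and -0.75 (share of miRNA reads). Without 1 library it lay at -1.10 to -0.78 and passed without either 50 ng library after oxidation (adjusted p = 0.0326 and 0.0332). miR-182-5p passed at 0.65 with unmethylated spike-ins. After oxidation, the difference of miR-183-5p between 50 and 100 ng was 0.00 to 0.76 without 1 library, and passed (adjusted p = 0.0387) without the second 50 ng library. The medians of all tested miRNAs at 10 against 100 ng were -0.49 in RPM, 0.08 with all spike-ins, -0.17 with methylated spike-ins and -0.11 with median centring.

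The adjusted p of the interaction F test of miR-183-5p was 0.332 (pseudocount 0.1), 0.0660 (no filter), 0.0687 (median centring), 0.300 (quantile), 0.600 (TMM), 0.432 (edgeR without TMM) and 0.153 (DESeq2), and 0.00599 to 0.114 without 1 library. That of miR-182-5p was 0.0155 with all spike-ins. Its 10 against 100 ng term turned to 0.067 with DESeq2. Counts of called miRNAs moved most in the comparison with oxidation, with 137 lower and 2 higher in RPM, 60 and 69 with median centring, 46 and 36 with quantile normalization, 13 and 8 with TMM and 8 and 19 with DESeq2. At 10 against 100 ng they were 49 lower and 27 higher in RPM, 24 and 47 with all spike-ins and 2 and 110 with unmethylated spike-ins.

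Replicate numbers showed no sign of pairing the libraries, with correlations of their deviations from -0.197 to 0.175 over 15 pairs of groups. These cannot exclude pairing, since only 61 to 74 miRNAs were detected per library after oxidation. The replicate block changed no call of a member, with an adjusted p of 0.00930 for miR-183-5p at 10 against 100 ng and 0.0462 for its interaction, and 46 miRNAs called lower and 26 higher at 10 ng. After oxidation, 1 read was worth 0.299 to 0.520 RPM, so depth limits what can be said of levels under that.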
